A study of Mus musculus with 2 samples.

Results

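Ccng1, Phlda3, Zmat3, Psrc1, Trp53inp1, Dcxr, Gdf15, Rps27l, Perp and Plk2 are 10 target genes of the transcription factor p53, among 31053 genes counted in mouse small intestine. They were selected on their high FMTg to Tg ratios in several cell classes of these same libraries. The ratios below therefore describe the 10 genes, and a ratio above 1 is not a finding by itself. The order of the ratios between cell classes, the levels in the Tg library, the level that free RNA carries and the values within finer clusters are the subject here.

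The Tg library came from the small intestine of a mouse with the genotype Mdm2+/- Cag-CreERTg. The FMTg library came from 1 whose genotype was Mdm2FM/- Cag-CreERTg. Cells of the fresh tissue were captured with the 10x Genomics Chromium 3' chemistry, in which each molecule is counted once by its barcode (a UMI) from a tag close to its 3' end. Both animals were C57BL/6j, 60 days old, and both carry 1 deleted copy of Mdm2 and the Cag-CreER transgene. Cag is a broadly active promoter, so the tamoxifen-switched recombinase is not limited to the epithelium. Both received a single tamoxifen injection of 6 mg per 40 g, and tissue was taken 24 hours later. By the labels, p53 is acutely activated by loss of Mdm2 in FMTg, while Tg retains Mdm2. With 1 library per genotype no difference has a replicate check, no test was run, and every 95% interval covers counting error only. Counts of intervals apart, or above a ratio of 1, have no share over all genes beside them. They describe the 10 genes and do not set them off from other genes.

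Mdm2 is the ubiquitin ligase that marks p53 for degradation, and cells without it accumulate p53. Active p53 binds DNA as a tetramer at a pair of half-sites and switches on genes that halt the cell cycle, dampen growth signals, promote death or adjust metabolism. In the intestine, the dividing cells of the crypt are known to be sensitive to p53. Differentiated enterocytes, the absorptive cells of the villus, no longer divide. Tuft cells are rare chemosensory epithelial cells, and T and B cells are lymphocytes of the mucosa and its lymphoid tissue.

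The 10 genes have different roles. Cyclin G1 (Ccng1), polo-like kinase 2 (Plk2) and the microtubule-associated protein Psrc1 act in the cell cycle. Phlda3 is a pleckstrin-homology protein that competes with the kinase Akt for membrane lipids, and Zmat3 is a zinc finger protein that binds RNA. Trp53inp1 is a stress-induced protein of autophagy and cell death, and Perp is a membrane protein of desmosomes linked to apoptosis. Gdf15 is a secreted stress cytokine, Dcxr is a carbonyl reductase of sugar metabolism, and Rps27l is a near copy of ribosomal protein S27.

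On mm10, Ccng1 lies at chr11:40748552-40755311, Phlda3 at chr1:135766119-135769136, Zmat3 at chr3:32334792-32366014, Psrc1 at chr3:108383839-108388231 and Trp53inp1 at chr4:11156431-11174379. Dcxr lies at chr11:120725399-120727281, Gdf15 at chr8:70629393-70632456, Rps27l at chr9:66946086-66949516, Perp at chr10:18845020-18857073 and Plk2 at chr13:110395046-110400844. None of them overlaps another gene of the GENCODE annotation.

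Promoter sequence was available for 7 of the 10 genes in the RefSeq table of build GRCm38.p6, in 10 windows of 300 bases that run from 250 bases before a start site to 50 after it. The p53 half-site, a motif of 10 bases that reads alike on both strands, was searched in its exact form, and as a pair with up to 2 mismatches in all and a spacer of up to 13 bases. An exact half-site was present in 2 of the 10 windows and in 8.36% of all 32851 promoter windows. A pair was present in the same 2 windows, of Ccng1 and Rps27l, and in 4.09% of all windows. The best-matching pair of each is shown in capitals, because no other window of the 10 genes held a pair. Each has 1 mismatch and no spacer.
Ccng1, chr11:40755457-40755486, minus strand: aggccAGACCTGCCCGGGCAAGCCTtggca
Rps27l, chr9:66946291-66946320, plus strand: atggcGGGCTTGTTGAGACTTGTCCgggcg
The Ccng1 pair lies at positions -195 to -176 from the start site and overlaps no GENCODE transcript. The Rps27l pair lies at -117 to -98 from the second of its 2 start sites, inside 3 GENCODE transcripts of the gene and in none of their exons. A match describes letters in a window and says nothing of binding.

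The Tg library held 54013005 UMIs in 6270 barcodes and the FMTg library 49805718 in 6382. After filters 2913 and 2675 cells remained, with medians of 4938 and 4710 UMIs and of 11.7% and 14.8% mitochondrial UMIs. The mitochondrial limit of 25% removed 47.0% of Tg and 52.5% of FMTg barcodes, and the results that moved with it are given among the alternatives. The libraries shared 14 barcode sequences, of which 7 were kept in Tg and 6 in FMTg. Cells were named from marker genes with the 10 genes left out of the clustering. The enterocyte-like class held 403 Tg and 445 FMTg cells, the crypt-progenitor-like class 10 and 39, the tuft-like class 51 and 62, the T-like class 1139 and 1050, and the B-like class 480 and 536. All markers of each of these 5 classes were detected in both libraries. Median depth was 30640 UMIs in Tg and 19940 in FMTg enterocyte-like cells, and the 2 clusters of that class were unequally filled, with 45.4% of its Tg and 77.1% of its FMTg cells in the one led by Selenop. Levels are UMIs summed over a class and scaled to the total of that class as counts per 1000000 (CPM). The targeted gene cannot be checked here, because 3' tags do not show whether an internal part of Mdm2 is deleted.

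In enterocyte-like cells all 10 genes were higher in FMTg, with every interval above a ratio of 1. Of the cell cycle genes, Psrc1 stood at 5.78 CPM in Tg and 14.5 CPM in FMTg, a ratio of 2.52, the highest of the 10. Ccng1 stood at 185 and 340 CPM, a log2 ratio of 0.88 (0.81 to 0.95). Plk2 stood at 35.9 and 55.2 CPM, a ratio of 1.54 that lay just past 1.5-fold. Trp53inp1, at 26.4 and 55.0 CPM, had the second highest log2 ratio, 1.06 (0.87 to 1.25). Phlda3 stood at 39.2 and 71.4 CPM and Zmat3 at 29.2 and 51.5 CPM, ratios of 1.82 and 1.76.

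Under 1.5-fold in enterocyte-like cells were 4 genes. Gdf15 stood at 27.4 and 39.2 CPM, a ratio of 1.43 that lay just under 1.5-fold. Dcxr stood at 64.6 and 86.9 CPM, Rps27l at 627 and 839 CPM, and Perp at 156 and 192 CPM, with Perp lowest at a ratio of 1.23. The other 6 genes were at least 1.5-fold higher, where 16.0% of the 10484 genes with at least 20 UMIs in this class were. The median log2 ratio was 0.72 for the 10 genes and 0.06 for all genes.

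In tuft-like cells the intervals overlapped those of enterocyte-like cells for 10 of 10 genes, which does not show that the classes respond alike. Trp53inp1 had the highest log2 ratio, 1.23 (0.65 to 1.83), at 36.8 CPM in Tg and 85.9 CPM in FMTg. Psrc1 stood at 22.7 and 49.6 CPM, Ccng1 at 229 and 381 CPM, and Zmat3 at 35.7 and 58.5 CPM. Phlda3 had 49 and 113 UMIs, a log2 ratio of 0.92 (0.42 to 1.43). Gdf15 was 17.3 CPM in Tg and 34.6 CPM in FMTg, Dcxr 90.8 and 134 CPM, and Rps27l 788 and 1041 CPM. Dcxr and Rps27l were higher in FMTg by less than 1.5-fold. Perp stood at 128 CPM in both libraries, a log2 ratio of 0.00 (-0.36 to 0.36), and Plk2 at 173 and 202 CPM, a log2 ratio of 0.22 (-0.07 to 0.52). These were the 2 genes whose interval included no difference. At least 1.5-fold higher were 6 of 10 genes, against 10.2% of 7103 genes, and the median log2 ratio was 0.72 against -0.03 for all genes.

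Among the 5 main classes, crypt-progenitor-like cells had the highest ratio for 9 of the 10 genes, and every interval lay above a ratio of 1. In the Tg cells Phlda3, Zmat3, Psrc1, Trp53inp1, Dcxr, Gdf15 and Plk2 had 2 UMIs each, or 4.93 CPM. These 14 UMIs came from 6 of 10 cells, with at most 3 in 1 cell. In FMTg Phlda3 had 132 UMIs, or 71.5 CPM, a log2 ratio of 3.86 (1.98 to 6.92). Zmat3 had 96 UMIs and a log2 ratio of 3.40 (1.51 to 6.46), and Dcxr 88 UMIs and 3.27 (1.38 to 6.34). Psrc1 stood at 30.9 CPM in FMTg, Trp53inp1 at 36.3 CPM, Gdf15 at 32.0 CPM and Plk2 at 35.8 CPM. Their log2 ratios ranged from 2.65 for Psrc1 to 2.88 for Trp53inp1, with lower bounds from 0.73 for Psrc1.

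The crypt-progenitor-like genes with more Tg counts gave smaller ratios. Ccng1 had 29 UMIs in Tg and 362 in FMTg, or 71.5 and 196 CPM, for a log2 ratio of 1.46 (0.91 to 2.05). Perp stood at 74.0 and 170 CPM, a log2 ratio of 1.20 (0.65 to 1.79). Rps27l stood at 836 CPM in Tg and 1203 CPM in FMTg, the only gene of the 10 under 1.5-fold. At least 1.5-fold higher were 9 of 10 genes, against 15.4% of 7577 genes, and the median log2 ratio was 2.78 against -0.03 for all genes. Of the 39 FMTg cells, 34 held a UMI of the 7 genes with 2 UMIs in Tg, and the cell with the most held 17.9% of their 565 UMIs. The median number of the 10 genes with a UMI per cell was 4 in both libraries. Cells with at least 5 of the 10 genes were 5 of 10 in Tg and 16 of 39 in FMTg. Over the 4 genes with at least 100 UMIs, Ccng1, Phlda3, Rps27l and Perp, the median was 1.33, so the size of the class median rests on the genes with few Tg UMIs. Enterocyte reporter genes stood at a median of 1.77% of their enterocyte-like level in Tg and 3.42% in FMTg. The highest were 2200002D01Rik at 16.7% in Tg and Reg3g at 46.7% in FMTg. Enterocyte RNA at the highest share would match 133% of the Tg level of Phlda3, 219% of Dcxr, 122% of Plk2 and 98.9% of Zmat3. In FMTg it would match 46.6%, 85.1%, 72.1% and 46.2%. The Tg levels of Phlda3, Dcxr and Plk2 are therefore not above background at that reporter. The part of enterocyte RNA in the ratios was not tested.

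In T-like cells 8 of the 9 genes with at least 20 UMIs had an interval above a ratio of 1. Psrc1 stood at 4.69 CPM in Tg and 20.2 CPM in FMTg, a log2 ratio of 2.11 (1.48 to 2.78), and Phlda3 at 11.6 and 41.6 CPM, a log2 ratio of 1.84 (1.43 to 2.26). Plk2, with 15 and 37 UMIs, had a log2 ratio of 1.51 (0.61 to 2.48). These 3 had the highest ratios of the class. Ccng1 stood at 85.3 and 153 CPM, Zmat3 at 12.9 and 24.6 CPM, and Rps27l at 214 and 362 CPM. Trp53inp1 was 74.0 CPM in Tg and 117 CPM in FMTg, and Dcxr 28.1 and 40.0 CPM. Perp had 67 and 62 UMIs, a log2 ratio of 0.09 (-0.43 to 0.61), and Gdf15, with 8 and 4 UMIs, was not measured. At least 1.5-fold higher were 7 of 9 genes, all but Dcxr and Perp, against 4.78% of 10638 genes, and the median log2 ratio was 0.84 against -0.08 for all genes.

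Among the 5 main classes, B-like cells had the lowest ratio for 5 of the 8 genes measured there. Phlda3 was the one gene past 1.5-fold, with 6 UMIs in Tg and 21 in FMTg, for a log2 ratio of 1.66 (0.30 to 3.26). Ccng1 stood at 44.5 and 60.5 CPM, a log2 ratio of 0.44 (0.02 to 0.88), and Rps27l at 147 and 199 CPM, a log2 ratio of 0.43 (0.20 to 0.67). The intervals of the other 5 included no difference. Zmat3 stood at 6.36 and 8.87 CPM, Trp53inp1 at 27.7 and 34.9 CPM, and Dcxr at 12.1 and 17.2 CPM. Perp had a log2 ratio of -0.53 (-1.70 to 0.59) and Plk2 one of -0.70 (-1.68 to 0.24). Psrc1, with 3 and 11 UMIs, and Gdf15, with 2 and 0, were not measured. At least 1.5-fold higher was 1 of 8 genes, against 5.99% of 8552 genes, and 1 of 8, Plk2, was at least 1.5-fold lower, against 10.9%. The count of 1 higher was 4 of 8 with free RNA subtracted or with at least 1000 UMIs per cell. It was 0 of 7 with classes from each cell's own marker score. The median log2 ratio was 0.44 against -0.09 for all genes.

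Both lymphocyte classes differed between the libraries in other measures as well. Summed levels of 15 dissociation stress genes were 3107 CPM in Tg and 1752 CPM in FMTg B-like cells, and 2872 and 1592 CPM in T-like cells. Median mitochondrial shares were 13.6% and 16.9% in B-like and 9.10% and 12.9% in T-like cells. Their part in the ratios of the 10 genes was not tested.

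**Figure D1:**
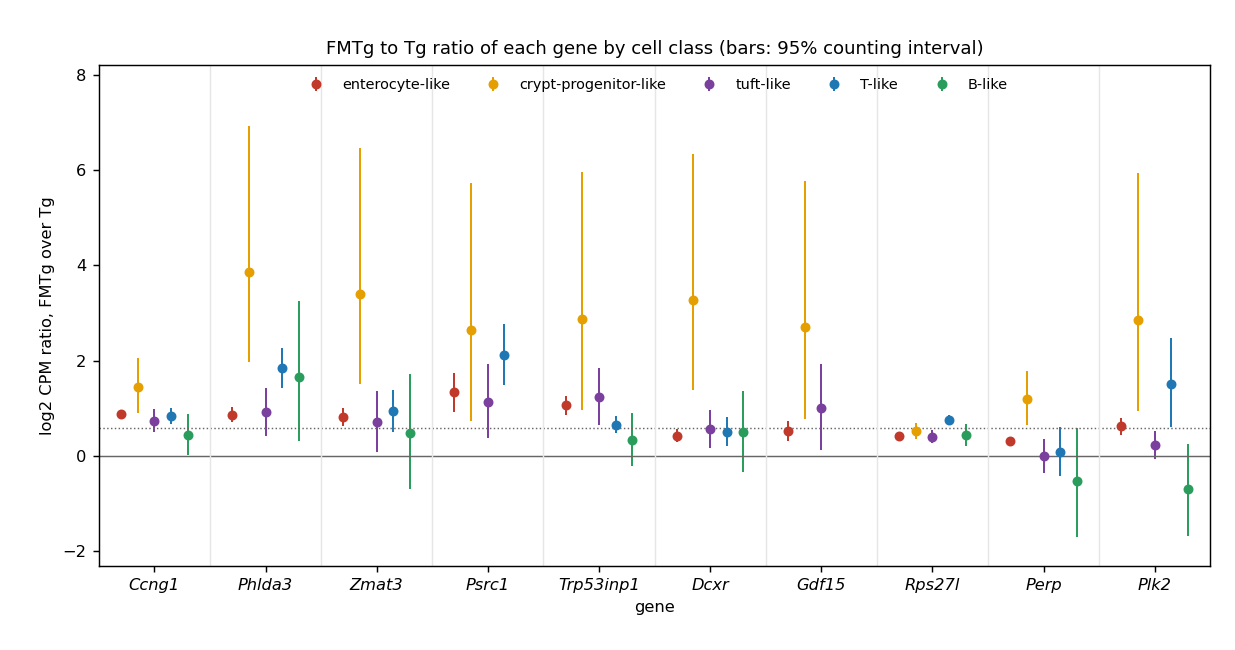
Log2 CPM ratio of FMTg over Tg (vertical axis) for each of the 10 genes in 5 cell classes, with 95% counting intervals; the dotted line marks 1.5-fold and genes under 20 UMIs are left out. Of these classes, crypt-progenitor-like cells have the highest point for 9 genes with wide intervals, and B-like cells the lowest for 5.

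The order of response is given for the 5 main classes, and can be read only where intervals stay apart. No share of all genes with intervals apart between these classes is given. The crypt-progenitor-like ratio lay apart from the class ranked next for 3 genes, Zmat3, Dcxr and Perp. Against enterocyte-like cells it was higher with intervals apart for 6 genes, Phlda3, Zmat3, Dcxr, Gdf15, Perp and Plk2, and against tuft-like cells for 5. All of these 6 but Perp had only 2 UMIs each in the crypt-progenitor-like Tg cells. Against T-like cells the crypt-progenitor-like ratio was apart for 4 of 9 genes. T-like cells had a higher ratio than enterocyte-like cells, with intervals apart, for Phlda3 and Rps27l, and a lower one for Trp53inp1. Against tuft-like cells they were higher for Phlda3, Rps27l and Plk2. B-like and tuft-like intervals overlapped for 8 of 8 genes. Below the crypt-progenitor-like class the rank differed from gene to gene. T-like cells were next for Phlda3, Zmat3, Psrc1 and Plk2, tuft-like cells for Trp53inp1, Dcxr and Gdf15, and enterocyte-like cells for Ccng1 and Perp.

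Levels in the Tg library followed another order than the ratios among the 5 main classes. Of these classes, tuft-like cells had the highest Tg level for 6 genes, with the interval apart from the next class for Ccng1, Psrc1, Dcxr and Plk2. Plk2 was 173 CPM in tuft-like, 35.9 CPM in enterocyte-like and 2.61 CPM in T-like cells. Trp53inp1 was highest in T-like cells at 74.0 CPM, with tuft-like cells next at 36.8 CPM. Outside the main classes, plasma-like cells had a higher Tg level of Trp53inp1, 216 CPM from 45 UMIs, and germinal centre B-like cells a higher one of Psrc1, 27.9 CPM. Gdf15 and Perp were highest in enterocyte-like cells at 27.4 and 156 CPM, though both overlapped tuft-like cells. Rps27l was highest in crypt-progenitor-like cells, overlapping tuft-like cells at 788 CPM. In FMTg the class at the top of the 5 was the same for each of the 10 genes. Phlda3 in FMTg stood at 71.5 CPM in crypt-progenitor-like and 71.4 CPM in enterocyte-like cells, while the Tg levels were 4.93 and 39.2 CPM.

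**Figure D2:**
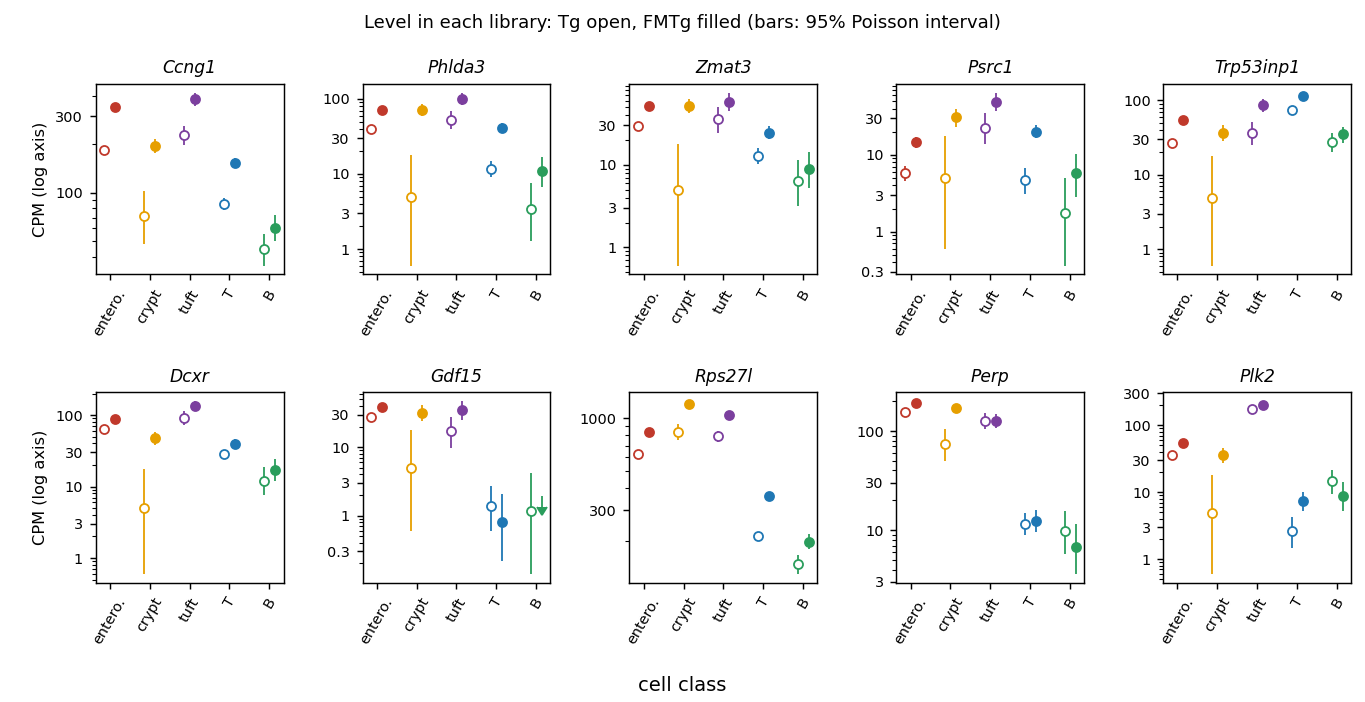
Level of each gene in CPM on a log axis, 1 panel per gene, in 5 cell classes, with Tg as open and FMTg as filled points and 95% Poisson intervals; an arrow marks the upper limit of a count of 0. The crypt-progenitor-like Tg points of 7 genes sit at 4.93 CPM, below the enterocyte-like points of 5.78 CPM or more.

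Free RNA in droplet data gives UMIs in cells that do not express a gene. For 16 enterocyte reporter genes, such as Apoa1, Fabp1 and Sis, T-like cells held a median of 3.85% of the enterocyte-like level in Tg and 2.58% in FMTg, and B-like cells 5.45% and 3.09%. Tuft-like cells held a median of 1.77% and 1.84%, with Fabp1 at 128% and 183%, above the level of the source itself. Enterocyte RNA at the median reporter share would amount for Trp53inp1 to 1.37% of the T-like level in Tg and 1.22% in FMTg. For Phlda3 it was 1.51 of 11.6 CPM in Tg and 1.84 of 41.6 CPM in FMTg. For Psrc1 it was 4.74% and 1.86% of the T-like level, and for Ccng1 8.34% and 5.74%. These genes stood above the free RNA level in both libraries. With this share subtracted, the T-like log2 ratio was 1.97 for Phlda3, 2.15 for Psrc1 and 0.88 for Ccng1, and 7 of 9 genes were past 1.5-fold.

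Other genes stood near the free RNA level in lymphocytes. Gdf15 in T-like cells was 1.39 CPM in Tg and 0.80 CPM in FMTg, where free RNA alone would carry 1.06 and 1.01 CPM. Perp in B-like cells was 9.83 and 6.78 CPM, of which 86.4% and 87.5% matched free RNA, and in T-like cells the share was 51.5% and 39.9%. The values of Gdf15 in T-like and Perp in B-like cells are read as background and not as expression. For Plk2 in T-like cells free RNA matched 53.1% of the Tg and 19.2% of the FMTg level, and for Phlda3 in B-like cells 61.6% and 20.1%. At the highest reporter it matched 104% of the Tg level of Plk2 in T-like and 122% of that of Phlda3 in B-like cells. These Tg levels are therefore not above background at that reporter, and no exact ratio is given with free RNA subtracted.

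**Figure D3:**
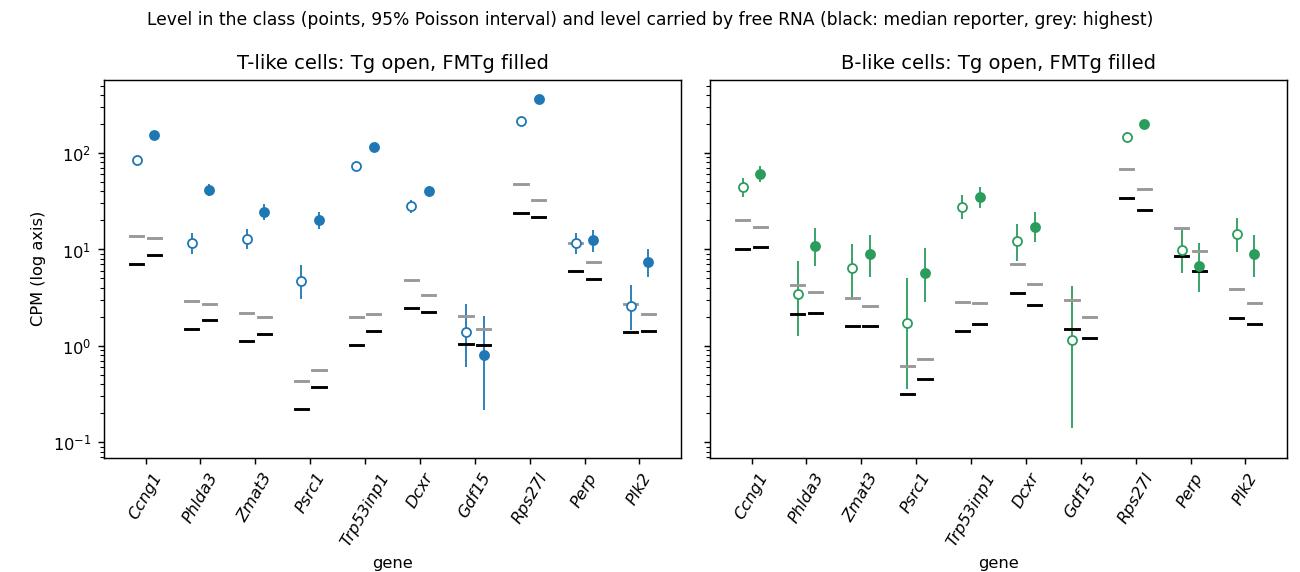
Level of each gene in T-like and B-like cells in CPM on a log axis (points, Tg open and FMTg filled, 95% Poisson intervals), beside the level carried by free enterocyte RNA at the median reporter (black bars) and at the highest reporter (grey bars). Gdf15 and, in B-like cells, Perp sit at the bars, while Trp53inp1, Ccng1 and Rps27l sit above them in both libraries.

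The share of cells with a UMI was compared after thinning each cell to 2000 UMIs. In T-like cells Phlda3 was found in 2.11% (1.34 to 3.15) of 1091 Tg cells and 7.02% (5.53 to 8.78) of 1011 FMTg cells, and in 4.13% and 11.9% of all T-like cells before thinning. The intervals of the 2 libraries lay apart. Ccng1 was found in 14.9% (12.9 to 17.2) and 23.7% (21.1 to 26.5), and in 29.3% and 37.6% unthinned. Gdf15, at its free RNA level, was found in 0.183% and 0.198% of thinned T-like cells. Median depths before thinning were 4912 and 4613 UMIs, and 48 Tg and 39 FMTg cells were too shallow. Cells with UMIs of at least 3 of the 10 genes made up 4.49% of Tg and 12.6% of FMTg T-like cells. The same share was 21.8% and 35.8% in enterocyte-like and 0.652% and 2.36% in B-like cells. In crypt-progenitor-like cells it was 10% of 10 Tg and 21.6% of 37 FMTg cells. Phlda3 was found there in 0% (0 to 30.8) and 13.5% (4.54 to 28.8), with overlapping intervals. Tuft-like cells held UMIs of the most genes after thinning, a mean of 2.02 in Tg and 2.82 in FMTg, and B-like cells of the fewest, 0.443 and 0.547.

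Cells were also clustered and named anew at the finer resolution of 2, so these clusters are not exact parts of the main classes. T-like clusters then held 942 Tg and 962 FMTg cells, against 1139 and 1050 in the main class. Enterocyte-like clusters held 403 and 444 cells, against 403 and 445. The 4 enterocyte-like clusters had median log2 ratios of 0.68, 0.82, 0.94 and 0.62 over the 10 genes, although the cluster with Clca4a held 26 Tg and 236 FMTg cells. Ccng1 ranged only from 0.77 to 0.96 across them. Gdf15 did not: it was 39.8 CPM in Tg and 19.9 CPM in FMTg cells of the Clca4a cluster, with a log2 interval from -1.71 to -0.23. In the Mbl2 cluster it was 19.3 and 49.7 CPM, a log2 ratio of 1.36 (0.97 to 1.76). The Tg value of Gdf15 in the Clca4a cluster rests on 20 UMIs.

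B-like cells fell into 2 clusters at this resolution, and the difference between them was not tested. The clusters held 480 Tg and 538 FMTg cells, against 480 and 536 in the main class. Over that main class Dcxr had 21 and 33 UMIs and Phlda3 6 and 21, with 21.2% of the FMTg Dcxr UMIs in 1 cell. Part of the FMTg UMIs of Dcxr and Phlda3 given here therefore came from cells outside it. How few cells carry these ratios was not tested. In the cluster with Cd83, an activation marker, among its leading genes (268 Tg and 161 FMTg cells), the median log2 ratio over 7 measured genes was 1.81. Dcxr there had 9 and 34 UMIs, or 8.98 and 50.5 CPM, a log2 ratio of 2.49 (1.40 to 3.74). Trp53inp1 stood at 11.0 and 38.6 CPM, a log2 ratio of 1.81 (0.75 to 2.98). In the other cluster, with Gm31243 among its leading genes (212 and 377 cells), Dcxr had 12 UMIs in each library, a log2 ratio of -0.80 (-2.09 to 0.48), and Trp53inp1 a log2 ratio of -0.43 (-1.08 to 0.23). The intervals of the 2 clusters lay apart for Dcxr, Trp53inp1 and Rps27l. Phlda3 had 2 UMIs in Tg and 20 in FMTg cells of the Cd83 cluster, for a log2 ratio of 3.90 (1.85 to 7.04), and 4 and 7 UMIs in the Gm31243 cluster. Ccng1 had overlapping intervals, with log2 ratios of 0.30 and 0.86.

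T-like clusters were unevenly filled by the libraries as well. Phlda3 was higher in FMTg in each of the 4 T-like clusters that measured it, with log2 ratios from 0.97 to 2.58. In the cluster with Ccl4 and Nr4a2 among its leading genes, both induced on T cell stimulation, Ccng1 was 91.9 and 94.4 CPM, a log2 ratio of 0.04 (-0.56 to 0.64). Trp53inp1 there had a log2 ratio of -0.12, Dcxr one of -0.26 and Rps27l one of 0.42.

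**Figure D4:**
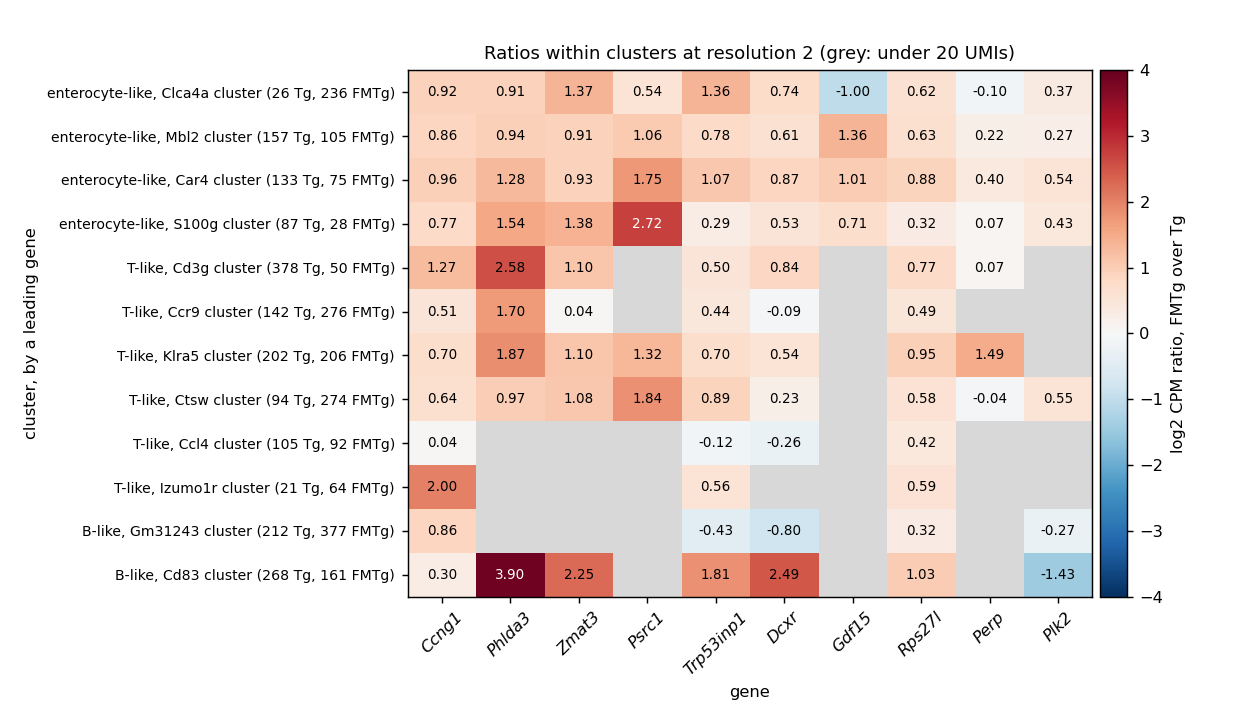
Log2 CPM ratio of FMTg over Tg (colour and printed value) for each gene in 12 clusters of enterocyte-like, T-like and B-like cells at resolution 2, each labelled by a leading gene and its cell numbers; grey marks under 20 UMIs. Psrc1 in the Clca4a cluster has a Tg count of 0 and its value is drawn with 3 counts, and the 2 B-like rows differ in colour for Trp53inp1 and Dcxr.

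Rps27l is set beside the other ribosomal protein genes. In enterocyte-like cells the median log2 ratio of 81 ribosomal protein genes was 0.37, and 35 of them lay above Rps27l at 0.42. In T-like cells the median was 0.13 and 4 of 81 lay above Rps27l at 0.76. Of 81 genes, 6 lay above it in crypt-progenitor-like, 13 in tuft-like and 11 in B-like cells. Its paralogue Rps27 was itself among the higher ones, with log2 ratios of 0.96 in enterocyte-like, 0.68 in crypt-progenitor-like, 0.53 in tuft-like, 0.65 in T-like and 0.50 in B-like cells. Whether reads that match both near copies affected these counts was not tested.

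Paralogues of the other genes gave mixed ratios. Of 10 paralogues listed, 6 had at least 20 UMIs in enterocyte-like cells and 2 were past 1.5-fold, Rps27 and Phlda1. Phlda1, a family member of Phlda3, went from 15.7 to 46.9 CPM there, a log2 ratio of 1.58, but from 222 to 130 CPM in tuft-like cells, a log2 ratio of -0.77 (-1.08 to -0.45). Ccng2, the relative of Ccng1, had a log2 ratio of 0.55 in enterocyte-like, 0.14 in T-like and -0.44 in B-like cells. Zmat5 was lower in FMTg enterocyte-like cells, at -0.37, and Trp53inp2 was at 0.22. In crypt-progenitor-like cells the mitotic kinase Plk1 was at 1.51 (0.54 to 2.68), Phlda2 at -0.52 and Phlda1 at 0.10. In T-like cells Zmat1 was at 0.66, Plk3 at -0.31, Phlda1 at -0.36, Zmat5 at -0.09 and Trp53inp2 at -0.50. In B-like cells Zmat5 was at 0.34, Zmat1 at -0.39, Plk3 at -0.43 and Trp53inp2 at -1.15, with 14 and 7 UMIs. The remaining paralogue values were Plk3 at 0.18 in enterocyte-like, Zmat5 at -0.63 in crypt-progenitor-like, and Zmat5 at -0.08 and Trp53inp2 at -0.15 in tuft-like cells.

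The other p53 targets were a list of 41. At least 1.5-fold higher were 16 of 34 measured in enterocyte-like, 16 of 26 in crypt-progenitor-like, 8 of 22 in tuft-like, 8 of 34 in T-like and 5 of 28 in B-like cells, and 2, 0, 2, 0 and 0 were at least 1.5-fold lower. Of all genes measured in these classes 16.0%, 15.4%, 10.2%, 4.78% and 5.99% were at least 1.5-fold higher, and 11.2%, 12.8%, 9.80%, 8.44% and 10.9% were at least 1.5-fold lower. The median log2 ratios of the list were 0.47, 1.01, 0.35, 0.21 and 0.14. Of the 5 main classes, crypt-progenitor-like cells had the highest and B-like cells the lowest of these medians, as for the 10 genes.

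Cdkn1a, the p21 inhibitor of cyclin-dependent kinases, had log2 ratios of 0.78 in enterocyte-like, 2.50 in crypt-progenitor-like, 0.37 in tuft-like, 1.25 in T-like and -0.03 in B-like cells. Mdm2 transcripts, themselves induced by p53, were at 0.94, 1.87, 0.76, 0.22 and -0.20. The highest in enterocyte-like cells were the death receptor Eda2r, from 4.17 to 18.7 CPM (2.16), Pidd1 (1.73) and Sesn2 (1.34), and the lowest were Sesn1, from 40.8 to 22.8 CPM (-0.84), and Fdxr (-0.40). Gtse1, a microtubule-associated inhibitor of p53, was highest in crypt-progenitor-like cells, with 1 and 51 UMIs and a log2 ratio of 3.49 (0.94 to 8.82), and in T-like cells (2.10), where the thiamine transporter gene Slc19a2 had 19 and 50 UMIs. The lowest in T-like cells were Pltp at -0.41 and the antiproliferative gene Btg2 at -0.35. In crypt-progenitor-like cells Ddit4 was at -0.13 and Triap1 at -0.05. In tuft-like cells Tap1 was at 0.65, Aen at 0.48, Triap1 at -0.04 and Ei24 at -0.05. In B-like cells Apaf1 was at 0.85, Xpc at 0.68, Rrm2b at 0.58, Btg2 at -0.42 and Triap1 at -0.43.

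Across 20 profiles, 10 named classes in each library, the genes most like each of the 10 were ranked by Pearson r of log2(CPM + 10) among 8045 genes, with the 10 themselves left out of the ranking. These profiles share libraries and differ in depth, so r is a description. Among genes outside the 10, Sesn2 was first for Phlda3 (0.87) and Zmat3 (0.87), followed by Mdm2 for Phlda3 (0.82) and Ddit4l for Zmat3 (0.84). Gtf3c1 was first for Ccng1 and Dcxr (0.88 for each), with Arl5a (0.86) and Abhd4 (0.86) next. Psrc1 was most like Ctc1 (0.81) and Gtse1 (0.80), and Trp53inp1 like Mdm4 (0.68) and Rint1 (0.67). Gdf15 was most like Fbxw9 (0.87) and Dglucy (0.86), Rps27l like Pdzd11 (0.86) and Mmadhc (0.83), Perp like Ptgfrn (0.95) and Tpm1 (0.94), and Plk2 like Zdhhc9 (0.95) and Trak1 (0.91).

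Among the 10 themselves, Phlda3 and Zmat3 had the highest r, 0.95, followed by Ccng1 and Dcxr at 0.94. Both values lie above those of the first-ranked genes outside the 10 for these 4 genes. The 10 genes were selected on their ratios in these same libraries, which can raise r among them. The comparison therefore does not set them off from other genes. Trp53inp1 had low r with the others, from -0.09 with Perp to 0.47 with Zmat3.

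Ratios in the smaller classes reached beyond the range of the 5 main ones, mostly with overlapping intervals. In enteroendocrine-like cells, 16 in each library, 10 of 10 genes were at least 1.5-fold higher, where 29.9% of 2885 genes were, and the median log2 ratio was 2.78. Ccng1 there stood at 62.7 and 531 CPM and Trp53inp1 at 54.8 and 434 CPM. The log2 ratios of Ccng1 (3.08), Zmat3 (3.57), Trp53inp1 (2.99), Dcxr (3.86), Gdf15 (3.81) and Perp (1.69) were above those of crypt-progenitor-like cells. Of these, the intervals lay apart only for Ccng1, at 2.06 to 4.33 against 0.91 to 2.05, and overlapped for the others. Psrc1 had 0 and 20 UMIs, a ratio of 3.59 with the Tg count set to 3, and its log2 interval began at 1.41. Median depth was 5962 UMIs in Tg and 13160 in FMTg, and enterocyte reporters stood at 5.42% and 22.4% of their enterocyte-like level. The part of depth and of enterocyte RNA in these ratios was not tested.

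In goblet-like cells, 121 Tg and 44 FMTg, 1 of 9 measured genes was past 1.5-fold upward, against 14.4% of 6390 genes, and 2 downward, against 19.6%, with a median log2 ratio of 0.03 against -0.05 for all genes. Gdf15 was 17.3 CPM in Tg and 5.14 CPM in FMTg, and Plk2 45.8 and 24.4 CPM. Enterocyte reporters stood at medians of 15.9% in Tg and 19.7% in FMTg of their enterocyte-like level, at which free RNA would carry 4.36 and 7.73 CPM of Gdf15. The FMTg level of Gdf15 is read as background, and free RNA matched 44.5% of the FMTg level of Plk2. Ccng1 was 96.8 and 102 CPM, a log2 ratio of 0.07 (-0.32 to 0.45), whose interval lay apart from that of enterocyte-like cells, and free RNA matched 30.4% of its Tg and 66.0% of its FMTg level. The highest reporter, Gsta1, stood at 258% in Tg and 244% in FMTg of its enterocyte-like level, above the level of the source itself. It therefore sets no upper free RNA level for these cells. The part of free RNA in the ratios of Gdf15, Plk2 and Ccng1 was not tested. In macrophage or monocyte-like cells, 204 and 47, 6 of 8 genes were past 1.5-fold, against 13.8% of 8038 genes, led by Gdf15 with 4 and 16 UMIs, of which 62.5% in FMTg came from 1 cell. In germinal centre B-like cells Perp had 17 and 86 UMIs, and 1 cell held 91.9% of the FMTg UMIs.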

How the data were processed

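The authors deposited 1 table of whole-number UMI counts for the Tg and 1 for the FMTg library, with CASAVA 1.8.1, Cell Ranger 3.0 and build mm10 named in the submitters' processing notes. The annotation counted is not given in the sources used. Positions came from GENCODE vM21, which matched 30464 of 31053 symbols.

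The 10 genes, the marker lists and the other gene lists were chosen with earlier results of these data known. Barcodes under 500 UMIs or 300 genes, or over 25% mitochondrial UMIs, were left out, which kept 3067 Tg and 2819 FMTg cells. Doublets were taken as the 154 Tg and 144 FMTg cells (0.8% per 1000 barcodes) with the highest scrublet scores (scanpy 1.11.5) and removed. Cells were clustered on 2000 variable genes without the gene lists, 30 principal components and 20 neighbours with leidenalg 0.10.2 at resolution 1. Each of the 19 clusters took the name of its highest-scoring type among 20 marker lists, unless under 3 markers were detected, another type held more of its 10 leading genes, or it was shallow with no own marker among them. The clusters left unnamed held 337 Tg and 322 FMTg cells. Among them were clusters of 59 Tg and 157 FMTg and of 110 and 105 cells that scored highest for T cells. They were left unnamed because Il7r, a marker on the NK or ILC list, was among their leading genes.

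Counts were summed per class and library and scaled to class totals. Ratios have exact conditional binomial, levels exact Poisson and shares exact Clopper-Pearson intervals at 95%. A library at 0 was set to 3 counts. Genes with at least 20 UMIs over both libraries were measured. Free RNA of a gene is its enterocyte-like CPM times the median over 16 reporters of class CPM over enterocyte-like CPM. Named beside the 10 genes are Mdm2, Cdkn1a and the 3 highest and 2 lowest other p53 targets with at least 50 UMIs per class, measured paralogues, and the 2 genes outside the 10 of highest r with at least 500 UMIs. There were 14 other settings listed at the outset and 4 chosen after seeing the data. The ratio and interval calculation was run on simulated Poisson counts without variation between cells. That run checks the calculation and not the spread between cells or animals. TMM factors came from edgeR 4.0.16 in R 4.3.3, and all else from Python 3.11.15 with scipy 1.17.1 and numpy 2.4.6.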

Additional observations from a re-analysis of the deposited data

Results flagged for a closer look

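Gdf15 and Plk2 pointed in opposite directions in different classes, with the counting interval on one side of 0 in each. Gdf15 had a log2 ratio of -1.75 (-3.70 to -0.27) in goblet-like cells, from 37 and 4 UMIs. In macrophage or monocyte-like cells it was 4.45 (2.82 to 6.49), from 4 and 16 UMIs. There 1 cell held 62.5% of the FMTg UMIs, a spread between cells that the counting interval does not cover. In goblet-like FMTg cells the Gdf15 level of 5.14 CPM lay below the 7.73 CPM that free enterocyte RNA would carry, so that ratio is set against a value at background. Plk2 had a log2 ratio of -0.91 (-1.70 to -0.19) in goblet-like cells, from 98 and 19 UMIs, with free RNA matching 44.5% of the FMTg level. In crypt-progenitor-like cells it was 2.86 (0.95 to 5.93), from 2 and 66 UMIs. Enterocyte RNA at the highest reporter would match 122% of that Tg level, so this ratio too is set against a value at background. Each rests on 1 library per genotype, and the difference between the classes was not tested.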

How the results depend on the processing

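No paired analysis was possible because each genotype has 1 library. None of the 10 genes that was past 1.5-fold in a class changed sign there under an alternative that measured it. A 10% mitochondrial limit left 56 Tg and 9 FMTg enterocyte-like cells. The median log2 ratio was then 1.94 over 5 enterocyte-like genes and 1.47 in crypt-progenitor-like cells. At that limit 3 of 7 tuft-like and 2 of 3 B-like genes were past 1.5-fold. At a 50% limit 3 of 10 enterocyte-like genes were, and Rps27l and Perp stood at -0.02 and -0.10 there. With a 50% limit and classes from each cell's own marker score, the crypt-progenitor-like median was 2.15 and enterocyte-like Gdf15 stood at 0.07. At 25% with own scores 0 of 7 B-like genes were past 1.5-fold. With at least 100 UMIs the crypt-progenitor-like median was 1.33. The counts were then 3 of 4 genes for crypt-progenitor-like, 3 of 7 for tuft-like and 0 of 3 for B-like cells. The B-like count of 1 of 8 was 2 of 8 without a mitochondrial limit or with TMM scaling, and 2 of 9 with doublets kept. It was 3 of 8 at resolution 2 with all or with only mixed clusters. With at least 1000 UMIs per cell or with free RNA subtracted it was 4 of 8. No share of all genes past 1.5-fold is given for these alternatives. No crypt-progenitor-like class formed at the 50% limit or without a limit, so these gave no value. The 2 T cell clusters left unnamed for Il7r were added to the T-like class in another setting, for 1308 Tg and 1312 FMTg cells. There 6 of 9 T-like genes were past 1.5-fold. The cause of these shifts was not tested. The crypt-progenitor-like ratios rest on 10 Tg cells.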
